A study of Mus musculus with 12 samples.

Results

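Gonadal (peri-uterine) white fat of 4 knockout mice given the treatment labelled Treg was compared with that of 4 wild type mice given vehicle, across all genes measured, all pregnant at E17.5. These 8 libraries, each taken here as 1 animal, were chosen by their labels out of 12 in the series. The KO Treg mice carry the label Tnfrsf11a (Rank) with Foxn1-Cre present and knocked out. The other 4 libraries, KO vehicle, carry the same knockout label and received vehicle, and they enter as the knockouts without the treatment and as part of the fit that sets the spread between animals. The WT vehicle mice have the same gene named without Cre. The question was what remained different from wild type in knockouts that had received the treatment. Foxn1-Cre acts in thymic epithelium and not in fat cells. The labels do not describe the Treg treatment further, and a group that would separate genotype from treatment, wild type given Treg, was not analysed here. KO Treg against WT vehicle therefore changes genotype and treatment together.

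RANK, the product of Tnfrsf11a, is a receptor of the TNF family that medullary epithelial cells of the thymus need to mature. Those cells present self antigens and support the making of regulatory T cells, which are marked by the transcription factor Foxp3 and restrain inflammation. White fat holds its own regulatory T cells next to adipocytes and macrophages, and late pregnancy is a time of insulin resistance and mobilisation of stored fat.

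Libraries were made with a 3' kit, so a count stands for a read near the end of a transcript, and values are CPM, the usual unit of counts scaled by library size, here on TMM-scaled totals. Total counts per library were 6583263 to 8746946 for KO Treg, 8350348 to 9617503 for KO vehicle and 5551967 to 12972655 for WT vehicle, so that 3 counts stand for 0.231 to 0.540 CPM. White adipocyte markers were high in every library: Adipoq (adiponectin) was at 4160 to 5460 CPM in KO Treg and 4250 to 4950 CPM in WT vehicle, Plin1 at 576 to 782 against 561 to 723 CPM and Fabp4 at 20300 to 36900 against 19000 to 34500 CPM. Tnfrsf11a was at 7.78 ± 1.92 CPM in KO Treg, 7.61 ± 1.11 CPM in KO vehicle and 8.20 ± 2.51 CPM in WT vehicle (mean ± SD, n = 4), and such reads from fat check nothing about a deletion in the thymus. Foxn1 had 0 counts in all 12 libraries. Pairs of libraries within KO Treg or within WT vehicle had a median correlation of 0.970 over genes (12 pairs), and pairs across these groups also 0.970 (16 pairs). Some libraries stood apart: WT vehicle 1 held 1970 CPM of Ucp1, the uncoupling protein of brown and beige fat, and KO Treg 2 held transcripts of the placenta, described further on. By animal number, KO Treg and WT vehicle each hold 2 mice of a lower and 2 of a higher number series, which the labels do not name as a batch, and the KO vehicle mice are all of the lower.

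No gene differed between KO Treg and WT vehicle at an adjusted p under 0.05. Of 12175 genes tested, 0 were called by the edgeR quasi-likelihood test (0%), and the smallest adjusted p was 0.848. An unadjusted p under 0.05 was found for 349 genes (2.87%), fewer than the 609 expected with no difference: 188 were higher (1.54%) and 161 lower (1.32%) in KO Treg. With KO vehicle left out of the fit (8 libraries only), 0 of 11864 genes were called and the smallest adjusted p was 0.108 (edgeR). Without KO vehicle 4 alone it was 0.109 (edgeR), so the value of 0.848 depends on which KO vehicle libraries are in the fit. Limma voom also called 0 genes, with 432 at an unadjusted p under 0.05, and DESeq2 called 1 of 16441 (0.00608%), Ccl8, with 435. In the same fit KO vehicle against WT vehicle called 34 genes (0.279%) and KO Treg against KO vehicle 1, Dysf (0.00821%). These comparisons share the WT vehicle or the KO Treg libraries with the present one. The median size of the log2 fold change, either way, was 0.117 for KO Treg against WT vehicle, 0.157 for KO Treg against KO vehicle and 0.176 for KO vehicle against WT vehicle.

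A p that misses the threshold does not show that levels were equal, so the intervals matter. For 10080 genes (82.8%) the 95% interval of the fold change lay within 2-fold of no difference either way, and for 6585 (54.1%) it lay within 1.5-fold. The other genes could differ by more than 2-fold without being called. Estimates past 2-fold were found for 129 genes, 38 higher and 91 lower in KO Treg. How many of these rest on a single library was not counted. Ucp1, among the 91, had a log2 fold change of -5.45, and of -0.51 without WT vehicle 1. Groups did not overlap for 199 genes (1.63%). With 4 libraries against 4 and no difference, full separation is expected by chance in a larger share of genes than this. A lack of overlap in the genes below is therefore given as a description and not as evidence of a difference. Fold changes were above 0 for 5968 genes (49%) and below 0 for 6207 (51%), with a median of -0.0040 on the log2 scale.

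**Figure D1:**
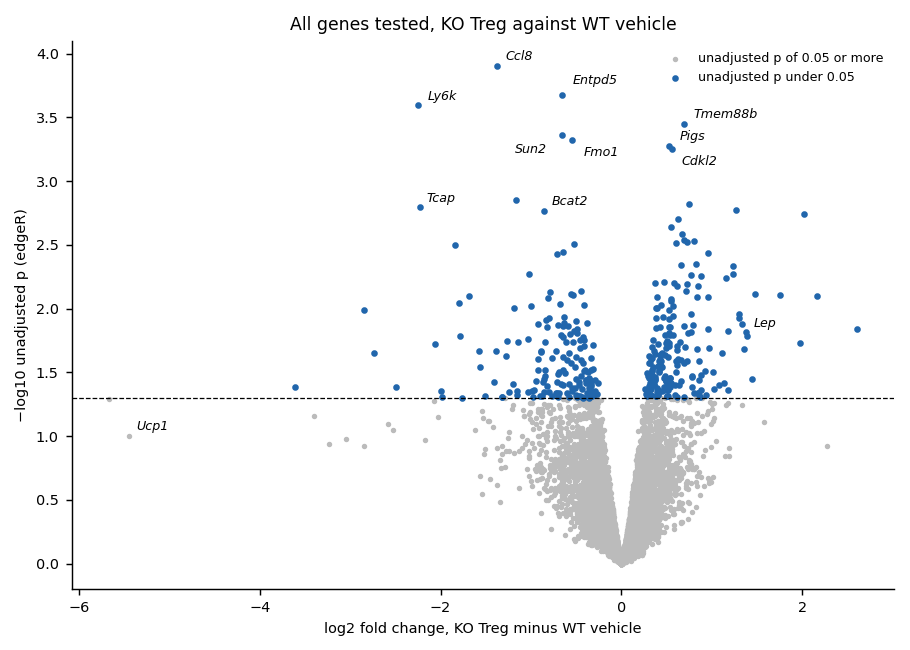
Log2 fold change (x axis, KO Treg minus WT vehicle) against −log10 of the unadjusted edgeR p (y axis) for 12175 genes; blue points are the 349 genes under 0.05 and the dashed line marks 0.05. Ccl8 has the smallest p, and Ucp1 lies far to the left with a p above the line.

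Ccl8, a chemokine that attracts monocytes (chromosome 11, 82115185 to 82116799, mm10), had the smallest p. It was at 12, 10.8, 11.7 and 12.9 CPM in the 4 KO Treg libraries, against 27.9, 25.9, 44.4 and 25.8 CPM in the 4 WT vehicle libraries. Every KO Treg library lay below every WT vehicle library, and the KO Treg values were close together. The log2 fold change was -1.38 ± 0.27 (SE; 95% interval -1.95 to -0.81; edgeR adjusted p = 0.848). DESeq2 called it lower, with an adjusted p of 0.0101. KO vehicle lay between, at 24.9 ± 10.9 CPM (mean ± SD, n = 4). In bulk fat, fewer cells of a type and less RNA per cell cannot be told apart.

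The 7 genes next in p also had groups that did not overlap, and each had an edgeR adjusted p of 0.848. Entpd5, an enzyme of the endoplasmic reticulum that aids glycoprotein folding (chromosome 12, 84373857 to 84409029), was at 62.7, 56, 49.9 and 56.5 CPM in KO Treg, against 107, 78, 81.9 and 86.8 CPM in WT vehicle. Its log2 fold change was -0.66 ± 0.14, and KO vehicle, at 56.9 ± 7.45 CPM, was as low as KO Treg. Sun2, a protein that ties the nuclear envelope to the cytoskeleton (chromosome 15, 79724070 to 79742536), was at 98.2, 140, 151 and 121 CPM in KO Treg, against 225, 190, 188 and 200 CPM in WT vehicle (-0.65 ± 0.15). Its mean was 128 CPM in KO Treg and also in KO vehicle.

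Fmo1, a flavin monooxygenase (chromosome 1, 162829561 to 162866610), was at 82.1, 67.9, 66.4 and 60.7 CPM in KO Treg, against 91.8, 97.2, 100 and 114 CPM in WT vehicle (log2 fold change -0.54 ± 0.12). KO vehicle was lower still, at 56.5 ± 4.23 CPM, and was itself called against WT vehicle. Ly6k, a lipid-anchored surface protein (chromosome 15, 74796874 to 74799986), was at 0.474 to 0.728 CPM in KO Treg, against 1.08 to 4.56 CPM in WT vehicle (-2.24 ± 0.48). Its KO Treg counts, 4 to 6 per library, are near the limit of 3, and the WT vehicle libraries had 6 to 53.

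Pigs, Cdkl2 and Tmem88b were the genes of small p with higher values in KO Treg. Pigs, a subunit of the enzyme that attaches lipid anchors to proteins (chromosome 11, 78328415 to 78342782), was at 45.6, 46.4, 44.1 and 48.7 CPM in KO Treg, against 32.4, 37, 30.7 and 28.4 CPM in WT vehicle (log2 fold change 0.52 ± 0.12). Cdkl2, a kinase related to cyclin-dependent kinases (chromosome 5, 92006074 to 92043883), was at 19.7, 21.6, 22.1 and 21.4 CPM in KO Treg, against 14.6, 14.6, 12.6 and 15.5 CPM in WT vehicle (0.56 ± 0.13). KO vehicle stood beside KO Treg for both, at 46.1 ± 4.44 CPM for Pigs and 20.5 ± 1.35 CPM for Cdkl2. Tmem88b (chromosome 4, 155781591 to 155785874) was at 47.4, 37.6, 54.9 and 51.2 CPM in KO Treg, against 26.9, 29.3, 34.3 and 28.1 CPM in WT vehicle (0.69 ± 0.15). For Tmem88b the KO vehicle level, 32.0 ± 5.44 CPM, stood beside WT vehicle instead.

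Within the lower number series the log2 fold change of KO Treg minus WT vehicle was -1.23 for Ccl8, -0.64 for Entpd5, -0.79 for Sun2, -0.32 for Fmo1, 0.42 for Pigs, 0.51 for Cdkl2 and 0.61 for Tmem88b. Within the higher series it was -1.50 for Ccl8, -0.66 for Entpd5, -0.51 for Sun2, -0.76 for Fmo1, 0.66 for Pigs, 0.63 for Cdkl2 and 0.77 for Tmem88b. Ly6k was at -2.39 in the lower series and too low to be tested in the higher. These genes were picked for a small p in the same libraries, and their groups do not overlap. A like sign in both series was set by that choice, and nothing is read from it. Exons of Ly6k, Sun2 and Cdkl2 overlap a gene on the opposite strand, and since no source used here states the strand setting of the counts, reads of such pairs cannot be told apart.

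**Figure D2:**
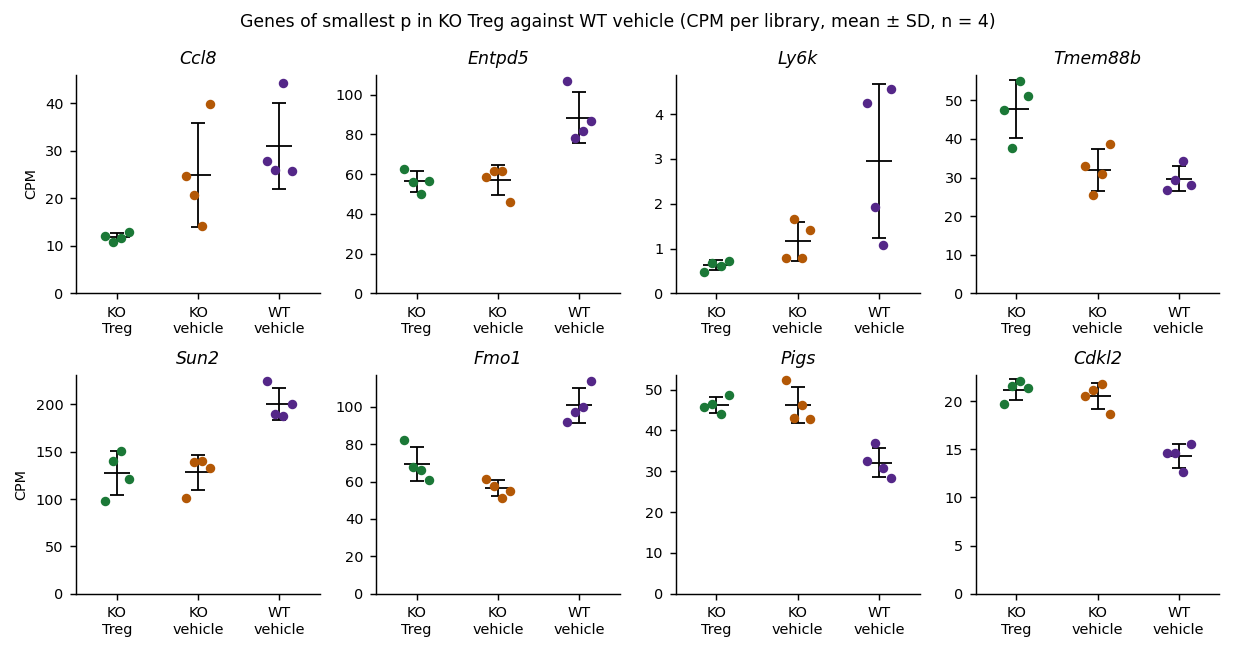
CPM per library (points) with mean and SD (bars, n = 4) of the 8 genes of smallest p, for KO Treg (green), KO vehicle (orange) and WT vehicle (purple); each panel has its own axis from 0. In all 8 panels the KO Treg points lie wholly to one side of the WT vehicle points.

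The next 22 genes by p each had an edgeR adjusted p of 1 and are given by what they do, enzymes first. Bcat2, which starts the breakdown of branched-chain amino acids, was at 19.7 to 31.4 CPM in KO Treg and 27.8 to 58.6 CPM in WT vehicle (log2 fold change -0.85 ± 0.23). Car2, a carbonic anhydrase, was at 3.52 to 5.59 against 7.01 to 14.6 CPM (-1.17 ± 0.30). Acsm3, which activates medium-chain fatty acids, was at 9.59 ± 2.45 CPM in KO Treg and 15.9 ± 3.27 CPM in WT vehicle, and Aldh3b2, an aldehyde dehydrogenase, at 30.7 ± 0.559 against 44.0 ± 10.9 CPM. Lpgat1, an enzyme of phospholipid synthesis, had higher values in KO Treg, at 435 ± 71.0 against 287 ± 50.3 CPM (0.60 ± 0.17). Bcat2 and Acsm3 have an overlapping gene on the opposite strand.

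Cell surface and matrix genes with higher values in KO Treg followed. Cav2, a caveolin of the small membrane pits that are dense on fat cells, was at 541, 556, 663 and 758 CPM in KO Treg, against 349, 441, 518 and 414 CPM in WT vehicle (log2 fold change 0.55 ± 0.15), with no overlap. Tenm4, a teneurin of the cell surface, was at 794 to 1170 against 533 to 732 CPM, and Col15a1, a collagen of basement membranes, at 123 to 206 against 76.9 to 116 CPM, and both share exon bases with an opposite-strand gene. Slc22a2, an organic cation transporter, was at 3.36 ± 0.832 against 1.35 ± 0.425 CPM (1.27 ± 0.34), again with no overlap. Kcns3, a potassium channel subunit, stood at 18.5 ± 4.25 CPM in KO Treg and 10.7 ± 2.48 CPM in WT vehicle.

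The remaining genes of this set were smaller in level or varied more. Ift27, of the transport machinery of cilia, was at 14.2 ± 0.722 CPM in KO Treg and 8.51 ± 1.72 CPM in WT vehicle, Prr16 at 1.33 ± 0.309 against 0.319 ± 0.175 CPM and A430105I19Rik at 24.8 ± 4.40 against 15.7 ± 3.53 CPM. Mycl, a transcription factor of the Myc family, was at 6.83 ± 1.09 against 10.6 ± 1.97 CPM. Sncg (gamma-synuclein) ran from 132 to 486 CPM within KO Treg, against 108 to 177 CPM in WT vehicle, and Cdsn from 12.8 to 34.8 against 10.6 to 16.9 CPM. For both, KO Treg 1 had the lowest KO Treg value and fell among the WT vehicle libraries. Vgll3, Srpx2, Serpina3m, Ppbp, Myl1 and Tcap, the other genes of the 30, come with their groups below.

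The genes called between the untreated knockouts and wild type were followed in KO Treg. Of the 34 genes called in KO vehicle against WT vehicle, 24 were higher there, with log2 fold changes of 0.69 to 3.37. In KO Treg against WT vehicle the same 24 had log2 fold changes of -0.20 to 1.34, with a median of 0.47 beside 1.18 for KO vehicle. The 10 that were lower in KO vehicle (-4.05 to -0.73) had values of -1.84 to -0.08 in KO Treg, with a median of -0.50 beside -1.12. The genes were picked for a large difference from the same WT vehicle libraries, so nothing is read from the smaller medians in KO Treg. None of the 34 was called in KO Treg against WT vehicle. Unadjusted p was under 0.05 for 19 of them and groups did not overlap for 3, Fmo1, Mycbp2 and Tmem38a, beside 2.87% and 1.63% of all genes. The choice of the genes raises these counts, and nothing is read from them. All KO vehicle mice are of the lower number series. With the series as a covariate 0 of the 34 calls was left (edgeR, smallest adjusted p = 0.0533, 1474 genes at an unadjusted p under 0.05), and 0 within the lower series (0.134, 1337 genes).

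Secreted proteins are given first. Pcolce2, which enhances the cutting of procollagen, was at 32.5, 44.0, 41.0 and 41.3 CPM in KO Treg, against 29.6, 32.5, 33.6 and 25.2 CPM in WT vehicle, with 61.8 ± 3.08 CPM in KO vehicle. KO Treg 1 lay among the WT vehicle libraries and the other KO Treg libraries lay between the vehicle groups. Its log2 fold change was 0.39 (95% interval 0.12 to 0.67; edgeR adjusted p = 1). Htra3, a secreted serine protease, was at 194, 327, 245 and 271 CPM in KO Treg, against 177, 182, 195 and 181 CPM in WT vehicle, with 447 ± 127 CPM in KO vehicle. Again only KO Treg 1 reached down to the WT vehicle libraries, and the fold change was 0.50 (0.09 to 0.90; edgeR adjusted p = 1). Srpx2, a secreted protein with sushi repeats, was at 19.2, 35.3, 39.3 and 23.9 CPM in KO Treg, against 15.9 to 20.1 CPM in WT vehicle, with 42.0 ± 5.92 CPM in KO vehicle.

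Vgll3, a cofactor of TEAD transcription factors, was at 8.57 ± 2.51 CPM in KO Treg, 13.8 ± 2.64 CPM in KO vehicle and 4.92 ± 1.27 CPM in WT vehicle. Dcbld2, a membrane receptor, was at 34.6 ± 9.37, 54.9 ± 12.2 and 24.3 ± 2.44 CPM in the same order, Nedd9, a scaffold of focal adhesions, at 24.2 ± 4.52, 37.3 ± 7.51 and 17.1 ± 3.50 CPM, and Zfyve28 at 4.29 ± 2.73, 10.7 ± 4.12 and 1.71 ± 0.624 CPM. For all of these the KO Treg mean lay between the means of the vehicle groups. Got1l1 was at 2 ± 0.848, 5.63 ± 0.363 and 0.921 ± 0.478 CPM, Cyb5r2, a cytochrome b5 reductase, at 0.822 ± 0.684, 3.33 ± 0.706 and 0.291 ± 0.183 CPM, and Dsn1, of the kinetochore, at 3.39 ± 0.964, 7.27 ± 1.23 and 2.49 ± 0.544 CPM. Among these 12 genes of smallest p in KO vehicle against WT vehicle, the adjusted p of KO Treg against KO vehicle was 0.248 to 0.514 (edgeR). No step from KO vehicle to KO Treg was thus called by edgeR. DESeq2 called 54 of 16441 genes between KO Treg and KO vehicle, with Pcolce2 and Cyp2f2 among them. Dcbld2, Nedd9, Zfyve28 and Cyb5r2 share exon bases with opposite-strand genes.

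Genes that were low in KO vehicle behaved less evenly. Cyp2f2, a cytochrome P450, was at 2.13, 1.48, 1.09 and 2.55 CPM in KO Treg, against 1.53, 1.29, 6.47 and 2.91 CPM in WT vehicle, while KO vehicle had 0.162 ± 0.0646 CPM. KO Treg and WT vehicle overlapped (log2 fold change -0.66, 95% interval -1.67 to 0.35), and an opposite-strand gene overlaps its exons. Ptger3, a receptor for prostaglandin E2, was at 505, 182, 228 and 310 CPM in KO Treg, against 278, 416, 389 and 209 CPM in WT vehicle, with 106 ± 15.8 CPM in KO vehicle. Greb1, an estrogen-induced gene, was at 6.50 ± 2.23 CPM in KO Treg, 2.14 ± 0.974 CPM in KO vehicle and 8.20 ± 3.10 CPM in WT vehicle, and it too has an overlapping opposite-strand gene. Bcat2, Fmo1 and Apoc1 stayed below WT vehicle in mean level: Apoc1, an apolipoprotein, was at 237 ± 33.3 CPM in KO Treg, 175 ± 19.1 CPM in KO vehicle and 335 ± 95.8 CPM in WT vehicle. Serpina3m, a serine protease inhibitor with a near-identical neighbour, Serpina3k, and therefore uncertain, was at 0.997 ± 0.805, 0.298 ± 0.110 and 3.72 ± 2.51 CPM in the same order of groups.

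Dysf (dysferlin, a protein that helps reseal torn membranes) was the single gene that edgeR called between KO Treg and KO vehicle. It was at 17.9, 27.4, 28.7 and 28.8 CPM in KO Treg, against 30.9, 28.3, 24.8 and 33.4 CPM in WT vehicle, with 52.6 ± 1.76 CPM in KO vehicle. KO Treg and WT vehicle overlapped, with a log2 fold change of -0.20 (95% interval -0.52 to 0.13; edgeR adjusted p = 1). The call against KO vehicle was lost with any 1 library left out (0 called by edgeR, smallest adjusted p 0.0622 to 0.28, with 722 to 1332 genes at an unadjusted p under 0.05), with RLE scaling (0.0567) and with the number series as a covariate (0.145). Its exons overlap genes on the opposite strand.

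**Figure D3:**
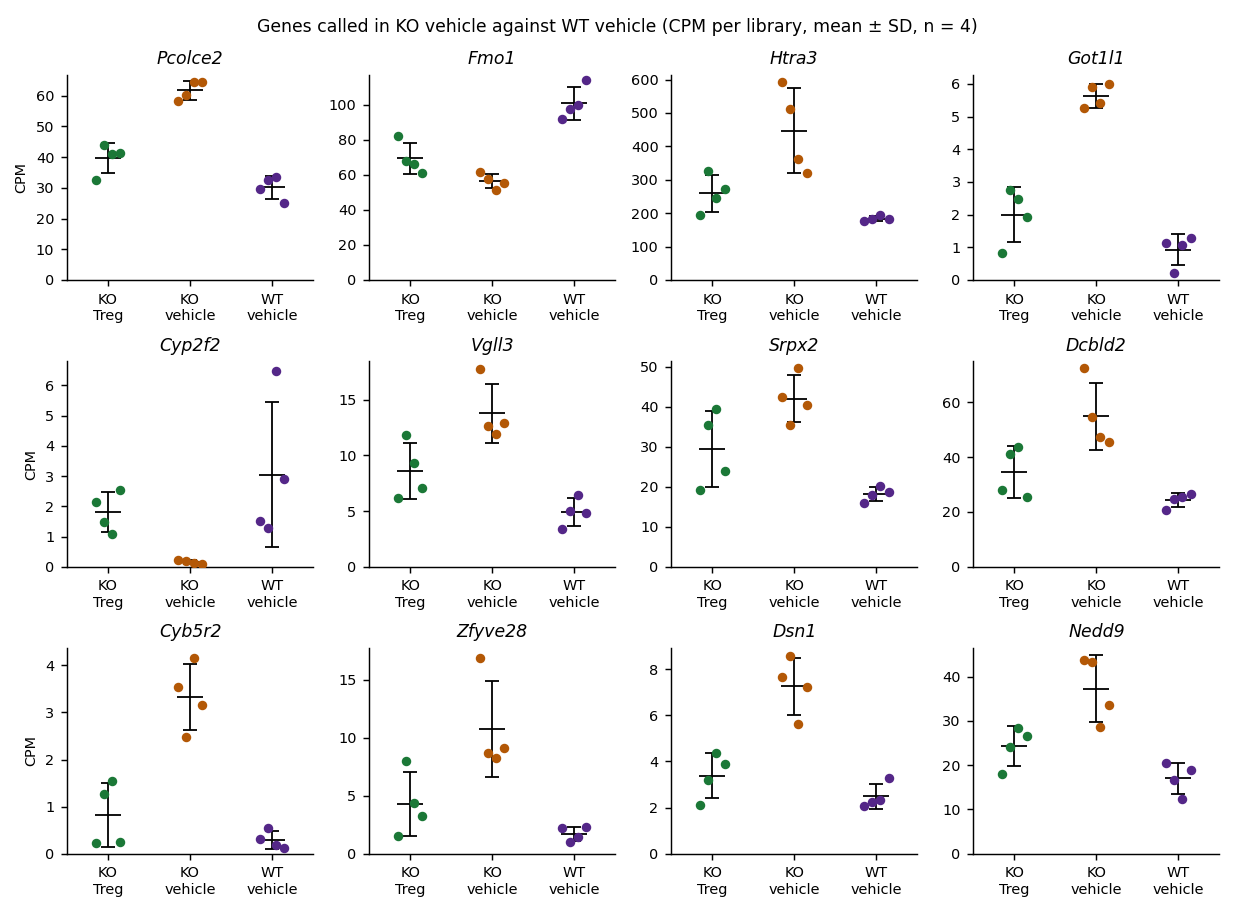
CPM per library (points) with mean and SD (bars, n = 4) of the 12 genes of smallest p in KO vehicle against WT vehicle, for KO Treg (green), KO vehicle (orange) and WT vehicle (purple); each panel has its own axis from 0. Except for Fmo1, KO Treg points overlap the WT vehicle points in every panel. KO vehicle points lie apart from the WT vehicle points in all 12, and KO Treg points reach into the KO vehicle range for Fmo1, Srpx2 and Htra3.

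The 4 treated animals were not alike in these genes. Of the 24 genes called higher in KO vehicle, KO Treg 1 had the lowest KO Treg value in 20, and 22 of its values were at or below the highest WT vehicle library. The count at or below the highest WT vehicle library was 3 for KO Treg 2, 5 for KO Treg 3 and 7 for KO Treg 4. Of the 10 genes called lower in KO vehicle, KO Treg 1 had the highest KO Treg value in 7. The genes that follow were chosen after their values were seen, and Tuba1a is itself among the 24, so they add nothing to these counts. Nnat (neuronatin) was at 37.1, 660, 428 and 201 CPM in KO Treg, against 109, 35.2, 92.4 and 101 CPM in WT vehicle, with 618 ± 46.8 CPM in KO vehicle. Fam20c, a kinase of secreted proteins, was at 19.1, 87.1, 54.1 and 33.3 CPM in KO Treg, against 14.4 to 21.3 CPM in WT vehicle, and Tuba1a, an alpha-tubulin, at 204, 456, 433 and 424 CPM against 179 to 378 CPM. KO Treg 1 lay in or next to the WT vehicle range for each, and the other KO Treg libraries lay mostly above it. Nnat has an overlapping gene on the opposite strand and Tuba1a one, Gm49450, on the same strand. Without KO Treg 1, 555 genes had an unadjusted p under 0.05 and 0 were called (edgeR, smallest adjusted p = 0.262), against 349 with it.

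Genes of mitochondrial fuel use were mostly at lower estimates in KO Treg, and WT vehicle 1 carried most of this. Of 26 fatty acid oxidation genes, 23 were below 0 and 3 above, with a median log2 fold change of -0.36, beside 51% below 0 and a median of -0.0040 over all genes. None was called; 4 were lower at an unadjusted p under 0.05, beside 1.32% of all genes. Slc25a20, which carries acylcarnitines into mitochondria, was at 68.1, 64.5, 66.0 and 64.8 CPM in KO Treg, against 186, 80.7, 57.9 and 91.0 CPM in WT vehicle. Hadha, of the trifunctional protein, was at 392, 356, 330 and 362 CPM in KO Treg, against 780, 434, 388 and 417 CPM in WT vehicle. WT vehicle 1 was far above all other libraries in both, and the groups overlapped. Without WT vehicle 1 the list median was -0.02. Eci1, an isomerase for unsaturated fatty acids, did not overlap, at 25.1 to 42.4 CPM in KO Treg and 42.7 to 57.3 CPM in WT vehicle, and Etfdh, which passes electrons to ubiquinone, was at 14.4 ± 3.64 against 22 ± 7.05 CPM. Hadha and Etfdh share exon bases with opposite-strand genes.

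The 11 tested thermogenic genes were all below 0, with a median log2 fold change of -2.07 and 0 called. Ucp1 was at 0.711, 43.2, 1.40 and 0.121 CPM in KO Treg, against 1970, 0.965, 0.539 and 47.4 CPM in WT vehicle. A single WT vehicle library was high, the groups overlapped, and the interval of the log2 fold change ran from -12.15 to 1.25. Dio2, which activates thyroid hormone, was at 0.685 to 2.13 CPM in KO Treg and 1.62 to 53.6 CPM in WT vehicle, Cpt1b, the muscle and brown fat carnitine transferase, at 1.21 to 7.08 against 2.16 to 120 CPM, and Pank1 at 7.46 to 13.5 against 10.4 to 140 CPM. WT vehicle 1 held the highest value of all 3. The summed level of the list was 154 to 522 CPM in KO Treg, 6070 CPM in WT vehicle 1 and 202 to 466 CPM in the other WT vehicle libraries, and KO vehicle ran from 137 to 2380 CPM. Without WT vehicle 1 the median was -0.19. Exons of Dio2 overlap a gene on the opposite strand and those of Cpt1b one on the same strand.

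Oxidative phosphorylation and the citric acid cycle followed the same library. Of 47 oxidative phosphorylation subunits 43 were below 0, with a median log2 fold change of -0.084, and of 25 genes of pyruvate entry and the citric acid cycle 19 were, with a median of -0.14. Without WT vehicle 1 the medians were 0.06 and 0.03. Within the number series the oxidative phosphorylation median was -0.32 in the lower, which holds WT vehicle 1, and 0.18 in the higher. Pdk4, the kinase that shuts pyruvate out of the cycle, was at 5.45, 9.82, 6.84 and 4.86 CPM in KO Treg, against 30.9, 9.32, 5.03 and 15.6 CPM in WT vehicle. Of 20 genes of branched-chain amino acid breakdown 16 were below 0 (median -0.094). Dbt, a subunit of the complex that Bcat2 feeds, was at 31.8, 29.6, 30.1 and 25.9 CPM in KO Treg, against 51.3, 36.5, 41.0 and 41.1 CPM in WT vehicle, with no overlap (-0.54, 95% interval -0.91 to -0.16; edgeR adjusted p = 1). What part Ucp1-rich cells have in these medians was not tested.

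Fat synthesis varied too much between animals to compare. Among the 28 genes that make fatty acids and triglycerides, 18 were above 0 and 10 below, with a median log2 fold change of 0.082 and 0 called. In KO vehicle against WT vehicle the median was -0.69. Fasn, fatty acid synthase, was at 19200, 6690, 2340 and 15700 CPM in KO Treg, against 6990, 18100, 10000 and 2140 CPM in WT vehicle. The groups overlapped along their whole range (log2 fold change 0.24, 95% interval -2.21 to 2.68). Acacb, an acetyl-CoA carboxylase that restrains fatty acid oxidation, was at 357, 157, 152 and 208 CPM in KO Treg, against 409, 378, 229 and 392 CPM in WT vehicle, and only KO Treg 1 overlapped.

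Leptin, the satiety hormone of fat, was higher in most KO Treg libraries without passing the test. Lep was at 139, 110, 123 and 219 CPM in KO Treg, against 28.5, 121, 33.2 and 43.0 CPM in WT vehicle. WT vehicle 2 overlapped KO Treg, and the other WT vehicle libraries were well below. The log2 fold change was 1.38 ± 0.48 (95% interval 0.32 to 2.44; edgeR adjusted p = 1), with 262 ± 85.8 CPM in KO vehicle. It was 0.74 within the lower number series and 2.16 within the higher. Lcn2, a lipocalin of the acute phase, was at 3.79, 1.26, 5.44 and 2.43 CPM in KO Treg, against 6.51, 3.22, 10.1 and 24.7 CPM in WT vehicle (-1.79, 95% interval -3.06 to -0.53). Adipoq had a log2 fold change of 0.08 (-0.22 to 0.39) and Plin1, which coats lipid droplets, 0.09 (-0.22 to 0.40). Of 14 adipokine genes 9 were above 0, with a median of 0.074.

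Enzymes of drug, steroid and lipoprotein handling included several with lower values in KO Treg. Cyp2e1, a cytochrome P450 that oxidises small molecules, was at 367, 188, 245 and 269 CPM in KO Treg, against 358, 294, 529 and 494 CPM in WT vehicle, and KO Treg 1 overlapped. Hsd11b1, which reactivates glucocorticoid, was at 12.7 to 20 CPM in KO Treg and 22.6 to 27.3 CPM in WT vehicle, with no overlap (log2 fold change -0.59, 95% interval -1.04 to -0.14; edgeR adjusted p = 1). Apoc2, the activator of lipoprotein lipase, was at 9.59 to 11.4 against 12.6 to 18.9 CPM, also with no overlap, though its exons overlap Gm44805 on the same strand. Of 19 flavin monooxygenase, P450 and carboxylesterase genes 12 were below 0 (median -0.20), and of 20 apolipoprotein and fatty acid uptake genes 12 were (median -0.049).

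**Figure D4:**
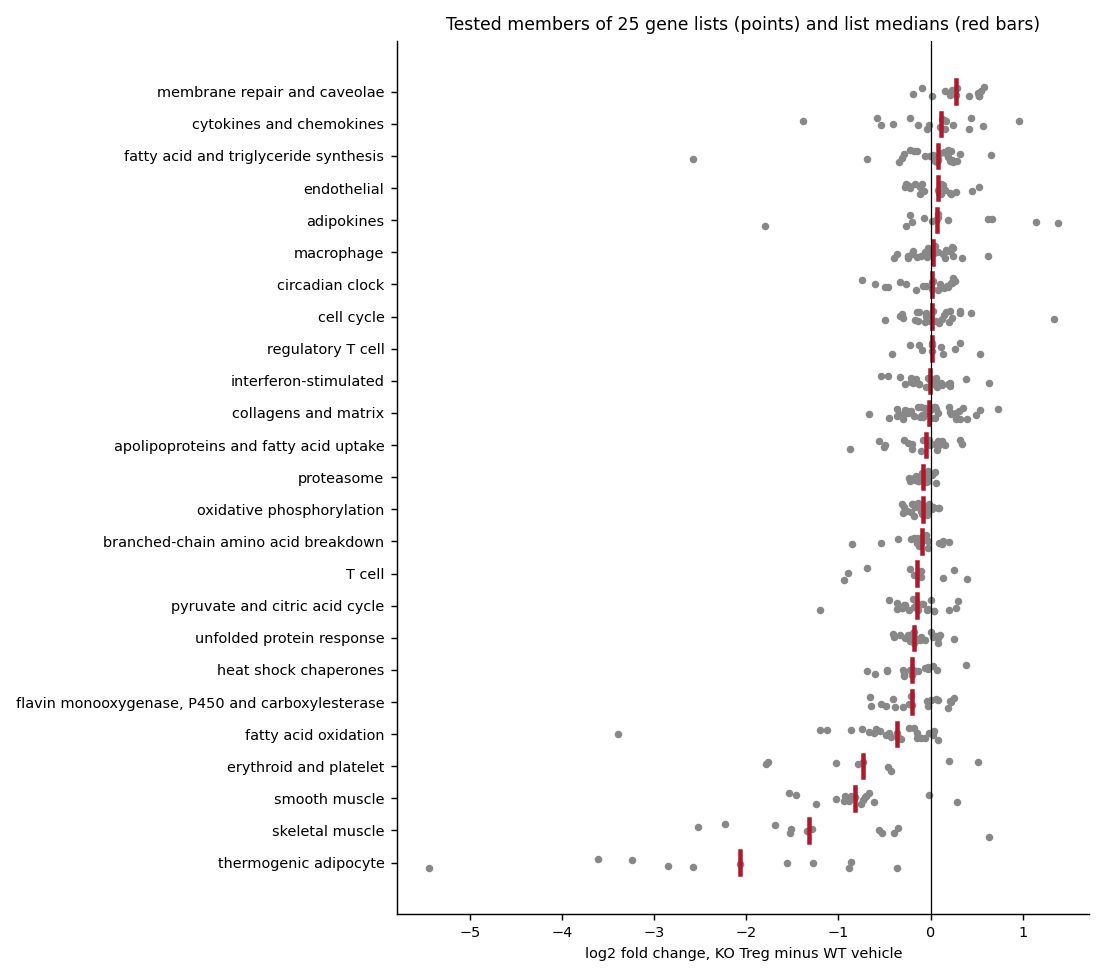
Log2 fold change (x axis, KO Treg minus WT vehicle) of each tested member (grey points) of 25 gene lists, with the list median (red bar), ordered by median. The thermogenic list lies farthest to the left at -2.07 and the list of membrane repair and caveolae farthest to the right at 0.28; no point was called.

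Smooth muscle genes had lower estimates in KO Treg for most members, and the groups overlapped. Of 17 smooth muscle genes 16 were below 0, with a median log2 fold change of -0.82, 0 called and 0 at an unadjusted p under 0.05. In KO vehicle against WT vehicle the median was -1.4. Lmod1, which nucleates actin filaments, was at 36.1, 78.6, 27.7 and 29.9 CPM in KO Treg, against 34.1, 94.1, 103 and 97.7 CPM in WT vehicle. KO Treg 2 was high and WT vehicle 1 low. Tpm1 (tropomyosin) was at 184, 429, 144 and 155 CPM in KO Treg, against 120, 518, 530 and 448 CPM in WT vehicle, and Pgm5, of muscle adhesions, at 38.5, 65.8, 19.4 and 26.2 CPM against 17, 75, 90.4 and 93.5 CPM. These show the same pair of libraries apart from their groups. Actg2, an actin of gut and uterine muscle, was at 0.466 to 72.9 CPM in KO Treg and 0.724 to 232 CPM in WT vehicle.

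The summed smooth muscle level was 2430 to 5230 CPM in KO Treg and 2150 to 6520 CPM in WT vehicle. The list median was 0.17 within the lower number series, which holds both odd libraries, and -1.81 within the higher, where Lmod1 (log2 fold change -1.80), Pgm5 (-2.0) and Tpm1 (-1.71) were called lower with an edgeR adjusted p of 0.029. That fit rests on 2 libraries against 2, and 3 of its 11748 genes were called (0.0255%). Without KO Treg 2 the list median was -1.30. How much muscle of the vessel wall or the uterus a piece of fat held was not measured, and its part in these values was not tested.

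Skeletal muscle genes were low throughout. Of 12 tested of 18, 11 were below 0, with a median log2 fold change of -1.32 (-0.60 without WT vehicle 2), and their summed level was 62.5 to 139 CPM in KO Treg and 44.0 to 209 CPM in WT vehicle. In KO vehicle against WT vehicle the median was -1.3. Tcap, a titin cap protein, was at 0.243 to 0.914 CPM in KO Treg and 0.359 to 4.31 CPM in WT vehicle (-2.23 ± 0.59), and Tnnt3, a troponin of fast fibres, at 0.486 to 2.51 against 2.34 to 8.25 CPM. Myl1, a light chain of fast fibres, went the other way, at 15.1 ± 0.782 CPM in KO Treg and 9.72 ± 1.07 CPM in WT vehicle, with no overlap (0.63 ± 0.17). Tcap is within a few counts of the limit in every KO Treg library. The part of muscle pieces in these values was not tested.

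Among lists with at least 4 tested members, that of caveolae and membrane repair had the highest median. Of 14 tested genes 12 were above 0, with a median log2 fold change of 0.28, 0 called and 4 higher at an unadjusted p under 0.05, beside 1.54% of all genes. The median was 0.45 without KO Treg 1, 0.14 within the lower number series and 0.44 within the higher. These 4 were Cav2, described above, Cav1, Anxa2 and Ahnak. Cav1, the main caveolin of fat and vessel cells, was at 487, 470, 416 and 587 CPM in KO Treg, against 313, 328, 435 and 289 CPM in WT vehicle (0.52, 95% interval 0.14 to 0.90). Anxa2, an annexin that binds membranes, was at 512, 927, 920 and 884 CPM in KO Treg, against 481, 510, 684 and 573 CPM in WT vehicle, and Ahnak, its large partner, at 550, 905, 979 and 808 CPM against 581, 670, 657 and 518 CPM. KO Treg 1 was low in Anxa2 and Ahnak, and not in Cav1, and Anxa2 has an overlapping opposite-strand gene. The mean log2 CPM over the list was 7.47 in KO Treg 1, 7.94 to 7.95 in the other KO Treg libraries and 7.39 to 7.68 in WT vehicle, and KO vehicle had 7.90 to 8.20.

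Endothelial and matrix lists were close to even in the sign of their fold changes. Of 21 endothelial genes 11 were above 0 (median log2 fold change 0.077). At an unadjusted p under 0.05, 3 were higher and 0 lower, beside 1.54% and 1.32% of all genes. These were Cav1, Egfl7, a secreted protein of vessels, at 359 ± 26.0 CPM in KO Treg and 296 ± 19.2 CPM in WT vehicle, and Cldn5, of endothelial tight junctions, at 38.4 ± 7.03 against 28.2 ± 8.0 CPM. Exons of Egfl7 overlap other genes on both strands. Of 40 collagen and matrix genes 18 were above 0 and 22 below (median -0.023), while in KO vehicle against WT vehicle the median was 0.22. In KO Treg against WT vehicle 3 of them were higher and 1 lower at an unadjusted p under 0.05, beside the same shares of all genes. The gene that follows is from the list of neutrophils and eosinophils and not among these 40. Mmp9, a matrix protease, was at 53.9 to 63.5 CPM in KO Treg and 35.6 to 49.7 CPM in WT vehicle, with no overlap (0.52, 95% interval 0.13 to 0.91; edgeR adjusted p = 1).

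**Figure D5:**
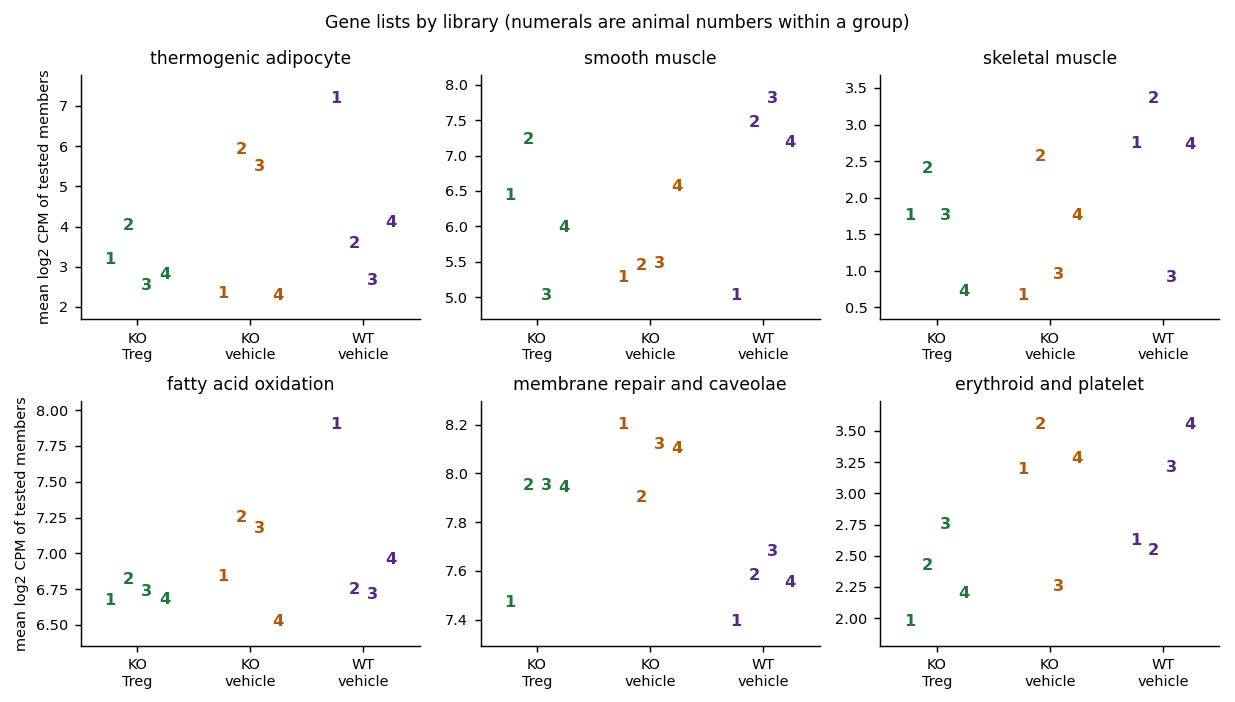
Mean log2 CPM over the tested members of 6 gene lists (y axis) in each library of KO Treg (green), KO vehicle (orange) and WT vehicle (purple); each numeral is the animal's number within its group and each panel has its own axis. WT vehicle 1 stands high for thermogenic and fatty acid oxidation genes and low for smooth muscle genes, and KO Treg 1 stands below the other KO Treg libraries for membrane repair and caveolae.

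Of 27 macrophage genes 14 were above 0 (median log2 fold change 0.027), of 18 cytokines and chemokines 10 (median 0.11), and of 25 interferon-stimulated genes 12 (median -0.011). Of 7 mast cell genes 6 were below 0 (median -0.24) and of 16 MHC class I genes 11 (median -0.17), with 0 called. Ccl24, a chemokine for eosinophils, was at 39.9, 32.1, 38.7 and 36.8 CPM in KO Treg, against 20.7, 25.3, 35.9 and 18 CPM in WT vehicle, opposite in sign to Ccl8 (0.57, 95% interval 0.16 to 0.98). WT vehicle 3 alone overlapped KO Treg in Ccl24. Rsad2, an antiviral gene induced by interferon, was at 63.4 to 117 CPM in KO Treg and 119 to 137 CPM in WT vehicle, with no overlap (-0.54, 95% interval -0.97 to -0.10). S100a9, of neutrophils, was at 3.64 ± 1.06 against 15.2 ± 9.46 CPM, and WT vehicle 3 (1.98 CPM) overlapped KO Treg. Of 5 tested neutrophil and eosinophil genes 2 were above 0 and 3 below (median -0.11, from -0.84 to 0.18 over all alternatives). Mmp9, described above, is on that list and had higher values in KO Treg.

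Lymphocyte transcripts were near the limit of detection. Foxp3 had 0 counts in all 4 KO Treg libraries and 1 count in all in WT vehicle, which allows no comparison. Cd3e, a subunit of the T cell receptor complex, had 1 to 3 counts per KO Treg library and 0 to 6 per WT vehicle library. Of 10 tested T cell genes 7 were below 0 (median log2 fold change -0.14), and the summed level of the list was 25.1 to 35.5 CPM in KO Treg and 19.6 to 47.5 CPM in WT vehicle. Cd2, an adhesion receptor of T cells, was at 1.09 to 1.48 CPM in KO Treg and 1.80 to 4.81 CPM in WT vehicle, with no overlap. Of 12 tested genes of the regulatory T cell list 8 were above 0 (median 0.014). Cd22, a receptor of B cells, was at 0.571 to 0.932 against 1.13 to 2.15 CPM, with no overlap (-1.18, 95% interval -2.04 to -0.33), and a gene on the opposite strand overlaps its exons. Of 8 tested B and plasma cell genes 5 were below 0, with a median of -0.79. That median ran from -0.79 to -0.15 with 1 library left out, and was -0.26 in the lower number series and -0.20 in the higher.

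Transcripts of blood cells had lower estimates in KO Treg. Of 9 tested erythroid and platelet genes 7 were below 0, with a median log2 fold change of -0.74, 0 called and 3 lower at an unadjusted p under 0.05, beside 1.32% of all genes. The median was -0.41 without WT vehicle 4. Ppbp, a chemokine of platelets, was at 1.78, 1.94, 2.02 and 0.850 CPM in KO Treg, against 3.62, 2.25, 3.23 and 4.31 CPM in WT vehicle, with no overlap (-1.03, 95% interval -1.70 to -0.35; edgeR adjusted p = 1). KO vehicle was at 4.83 ± 0.861 CPM. Slc4a1, the anion exchanger of red cells, was at 0.119, 0.685, 3.73 and 0.971 CPM in KO Treg, against 4.26, 3.11, 4.13 and 6.46 CPM in WT vehicle. KO Treg 3 alone overlapped WT vehicle. The summed level of the list was 126 to 227 CPM in KO Treg, 223 to 293 CPM in KO vehicle and 165 to 301 CPM in WT vehicle. How much blood each piece of fat held was not measured, and its part in these values was not tested.

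Lists of protein folding and turnover leaned below 0 by small amounts. The unfolded protein response list had 18 of 25 genes below 0 (median log2 fold change -0.18), the heat shock chaperones 15 of 18 (median -0.20) and the proteasome subunits 22 of 25 (median -0.079), with 0 called in each. Over all genes 51% were below 0. The proteasome median was -0.16 within the lower number series and 0.05 within the higher. In KO vehicle against WT vehicle the medians were, in the same order of lists, 0.22, 0.076 and -0.091. Hspa5, the main chaperone of the endoplasmic reticulum, was at 798, 1040, 1180 and 965 CPM in KO Treg, against 1100, 1220, 796 and 1290 CPM in WT vehicle, with 1650 ± 260 CPM in KO vehicle. KO Treg and WT vehicle overlapped (-0.15, 95% interval -0.51 to 0.21). Dnajb9, one of its co-chaperones, was at 21.9 to 33.1 against 30.9 to 43.7 CPM, with exons that overlap a gene on the opposite strand. Hspb1, a small heat shock protein, was at 233 ± 39.8 CPM in KO Treg and 355 ± 153 CPM in WT vehicle. Of 27 cell cycle genes 14 were above 0 (median 0.016), and Ccnb1, a mitotic cyclin, was at 0.593 to 1.46 CPM in KO Treg and 0.214 to 0.482 CPM in WT vehicle, a few counts per library. Of 21 clock genes 12 were above 0 (median 0.018), with Nfil3, a repressor of clock output, at 8.37 ± 1.17 CPM in KO Treg and 11.8 ± 1.57 CPM in WT vehicle.

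KO Treg 2 held transcripts of the placenta, and so did KO vehicle 1 at a lower level. The KO Treg 2 summed level over 23 placental genes was 358 CPM, with a count in 17 of them, and that of the other KO Treg libraries was 18.8 to 32.6 CPM. KO vehicle 1 had 133 CPM and a count in 15, the other KO vehicle libraries 15.3 to 19.5 CPM, and WT vehicle 12.9 to 32.8 CPM, with a count in up to 11 genes. Prl3b1, a placental lactogen, was at 24.9 CPM in KO Treg 2, at 0 counts in the other KO Treg libraries and at up to 0.750 CPM in WT vehicle. Psg23, a pregnancy-specific glycoprotein, was at 18.7, 166, 31.9 and 19.9 CPM in KO Treg, against 12.7, 19.5, 19.4 and 28.0 CPM in WT vehicle. Without KO Treg 2, 0 genes were called and 323 had an unadjusted p under 0.05 (edgeR). The log2 fold changes of Ccl8, Entpd5 and Sun2 were then -1.34, -0.65 and -0.70.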

How the data were processed

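For each library the authors deposited a table of raw counts by gene symbol (20632 symbols, 4160 of them at 0 in all 12). Per the labels' protocols, libraries came from a QuantSeq 3' kit. HTSeq 0.6.1, TopHat2 2.1.1, SAMtools 1.3.1, BWA 0.7.12 and the build mm10 are named in the submitters' processing notes; what each did, the annotation and the strand setting are not stated there or in the labels. Genes were kept by filterByExpr, scaled by TMM and tested with the robust quasi-likelihood test of edgeR 4.0.16 (R 4.3.3), 3 groups in 1 fit of 12 libraries, with Benjamini-Hochberg adjustment over all genes. SE is the log2 fold change over the root of F, and intervals are 95%. The edgeR p-values set a group difference against the spread between animals, estimated from all 12 libraries in 3 groups with information shared across genes. Every pair of libraries within KO Treg or within WT vehicle differed by more than sampling noise. The limit of 3 counts covers counting error only.

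The comparison, the 53 gene lists and the genes were chosen with earlier results of these data known. Named genes were Tnfrsf11a, Foxn1 and Foxp3, the 30 of smallest p, the 2 of smallest p in each list, the 12 of smallest p in KO vehicle against WT vehicle, and Dysf. Others (Ucp1, Actg2, Fasn, Hspa5, Adipoq, Plin1, Fabp4, Ptger3, Greb1, Nnat, Fam20c, Cpt1b, Tpm1, Pgm5, Psg23, Prl3b1, Anxa2, Ahnak, Tnnt3, Hadha, Slc25a20, Cldn5, Cd3e, Mycbp2, Tmem38a), and which lists and genes are described, were chosen after their values were seen. Alternatives used DESeq2 1.42.0, limma 3.58.1, other scalings and filters, the number series, thinned counts and left-out libraries. Fits were tested on simulated data. Positions and overlaps are from GENCODE M21 (GRCm38).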

Additional observations from a re-analysis of the deposited data

Results flagged for a closer look

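Of 232 sets of 4 values checked, 20 had a library far from the others of its group. For normally spread values chance gives such a library in about 1 of 20 sets. Single genes were checked as CPM without logs, and many were chosen after their values were seen. Genes of a list are also not independent. The count of 20 is therefore not compared with chance. In KO Treg 1, Dysf (17.9 CPM, others 27.4 to 28.8), Tuba1a (204, others 424 to 456) and Anxa2 (512, others 884 to 927) were low, as were the mean log2 CPM of the lists of membrane repair and caveolae (7.47, others 7.94 to 7.95) and of endothelial genes (6.32, others 6.40 to 6.42). In KO Treg 2, Lmod1 (78.6 CPM), Tpm1 (429), Ucp1 (43.2) and Psg23 (166) were high and Dnajb9 (21.9) was low.

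In WT vehicle 1, Ucp1 (1970 CPM, others 0.539 to 47.4), Dio2 (53.6), Pank1 (140), Cpt1b (120) and Hadha (780) were high and Lmod1 (34.1, others 94.1 to 103) was low. In WT vehicle 2, Lep was high (121 CPM, others 28.5 to 43.0). In WT vehicle 3, Ccl8 was high (44.4 CPM, others 25.8 to 27.9) and Slc22a2 low (0.719, others 1.5 to 1.65). In WT vehicle 4, Cd2 was high (4.81 CPM, others 1.80 to 1.93).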

How the results depend on the processing

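In KO Treg against WT vehicle, 0 genes were called higher under all 29 alternatives and 0 lower under all but 3: DESeq2 called 1 lower (Ccl8), the higher number series alone 3 (Lmod1, Pgm5 and Tpm1), and the fit without KO Treg 2 and WT vehicle 1 called 1 (Tpm1). Those 2 libraries were left out after seeing that they went against their groups in smooth muscle genes, so nothing is read from that call. Leaving out 1 library at a time gave 0 calls, and 270 to 555 genes at an unadjusted p under 0.05 (555 without KO Treg 1). Calls in KO vehicle against WT vehicle, 34, ran from 1 to 125 with 1 library left out and from 0 to 250 over all alternatives, with 0 when the number series was a covariate, and those in KO Treg against KO vehicle, 1, from 0 to 54. Of 91 genes followed, 82 kept their sign under every alternative that tested them and 9 changed it, 19 times in all. Many of the 91 were picked for a small p in these same libraries, so nothing is read from the number that kept their sign. In the lower number series alone log2 fold changes became 0.36 for Cyp2f2, 0.01 for Hspb1, 0.17 for Actg2, 0.13 for Greb1, 0.19 for Pgm5 and 0.48 for Tnfrsf11a, and in the higher alone 0.04 for Hspa5. Thinned counts gave 0.05 for Tnfrsf11a. Ptger3 was at 0.10 without KO Treg 2 and KO vehicle 1 and at 0.04 without KO Treg 2 and WT vehicle 1. With 1 library left out, Fasn ran from -0.17 to 0.78, Ptger3 from -0.43 to 0.11 and Tnfrsf11a from -0.26 to 0.09. Among list medians, that of fatty acid and triglyceride synthesis ran from -0.23 to 0.46, T cell from -0.36 to 0.08 and mast cell from -0.47 to -0.16. The cause of these changes was not tested. No paired analysis was possible because replicate numbers follow accession order and pair no animals. Depth limits genes near 3 counts per library, such as Ly6k, Tcap, Ccnb1 and Foxp3.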
